A study of Homo sapiens with 6 samples.

Results

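The genes described here are those whose RNA was close to undetected in one group of PC-3 cells and clearly counted in the other. A gene was called on when it had at most 3 reads in every shCon library and at least 30 in every shCdGAP library, and off when the same held with the groups exchanged. MMP2, DAAM2 and LPCAT2, which also met the on rule, were left out by name. Of the 64253 genes in the count tables, 31298 had a read in any library, and 37 were members, 28 on (0.0895% of the genes with a read) and 9 off (0.0288%). The members were chosen by these read counts, so the difference between the groups is a description of the members and no test is attached to it.

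PC-3 is a prostate cancer cell line derived from a bone metastasis. The comparison asked which transcripts change when CdGAP, a GTPase-activating protein for Rac1 and Cdc42 encoded by ARHGAP31, is depleted by a short hairpin RNA. There were 3 libraries of cells carrying the CdGAP hairpin (shCdGAP) and 3 of cells carrying a control hairpin (shCon), and no other treatment, time point or cell line. Per the methods, CdGAP-depleted cells were selected with puromycin and then grown from single cells into clones. The sequenced clone is not named, and cloning is not stated for the control cells, so a difference between a clone and its parent population cannot be told apart from an effect of CdGAP depletion. The samples are called independent, and p-values set the difference between the groups against the spread between libraries of a group. They do not cover variation between clones or between hairpins.

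Libraries held 33182796 to 43154039 gene reads. ARHGAP31 had 1072, 1181 and 926 reads in shCdGAP replicates 1, 2 and 3 and 2472, 2557 and 1923 in the shCon libraries, a log2 fold change of -1.14 ± 0.04 (SE; edgeR quasi-likelihood test, adjusted p = 8.75e-08). Both groups had the keratins and EPCAM of an epithelial line, while the prostate genes KLK2 and KLK3 were at 0 in all libraries and TMPRSS2 had at most 3 reads in each. The shCdGAP replicate 2 stood apart from the other 2 libraries of its group. The chi-square of its counts per degree of freedom was 32.5 and 40.0 against replicates 1 and 3, compared with 3.69 between those 2 and 2.90 to 8.19 among shCon libraries. Across the 16439 genes that passed a filter on low counts, 8.56% were higher in shCdGAP cells and 4.19% lower (adjusted p under 0.01 and a change of more than 1 on the log2 scale). All 37 members passed the filter, each through the group in which it is high.

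A gene near 0 reads in a growing cell line is usually one whose promoter is held silent in that lineage, for example by DNA methylation, repressive chromatin or the lack of an activating transcription factor. Genes of one family often sit side by side because they arose by duplication, and such neighbours can share enhancers and a common chromatin domain. Keratins, guanylate-binding proteins, GIMAP GTPases, chemokines, trefoil factors and carbonic anhydrases are all arranged in this way in the human genome.

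Of the 28 on members, 27 were annotated as protein coding and 1, ZNF788P, as a transcribed unprocessed pseudogene. Of the 9 off members, 8 were protein coding and 1, SENCR, was a long non-coding RNA. Protein-coding genes made up 79.5% of the tested genes. By role, 7 on members were channels, transporters or receptors, 6 belonged to adhesion, matrix and the cell surface, 4 were linked to immune cells or interferon, 4 were nuclear regulators, 3 were secreted factors, 2 were keratin or epidermal products, 1 was an enzyme and 1 a cancer-testis antigen. Among the off members were 2 nuclear regulators, 2 enzymes, 2 channels or transporters, 1 surface protein, 1 motor protein and SENCR. Levels were low even where these genes were on. In RPKM (reads scaled to library size and to the length of the exons, the scale for comparing levels between genes), the shCdGAP mean of the on members ran from 0.0896 to 5.71 with a median of 0.561. The median on member was at the 19.0th percentile of the tested genes, and 2 of the 28, OLFM2 and XAGE2, were above the 50th. The off members ran from 0.108 to 1.41 RPKM in shCon cells, at percentiles 5.92 to 32.8. In bulk RNA, a few cells with many copies and many cells with a few cannot be told apart.

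**Figure D1:**
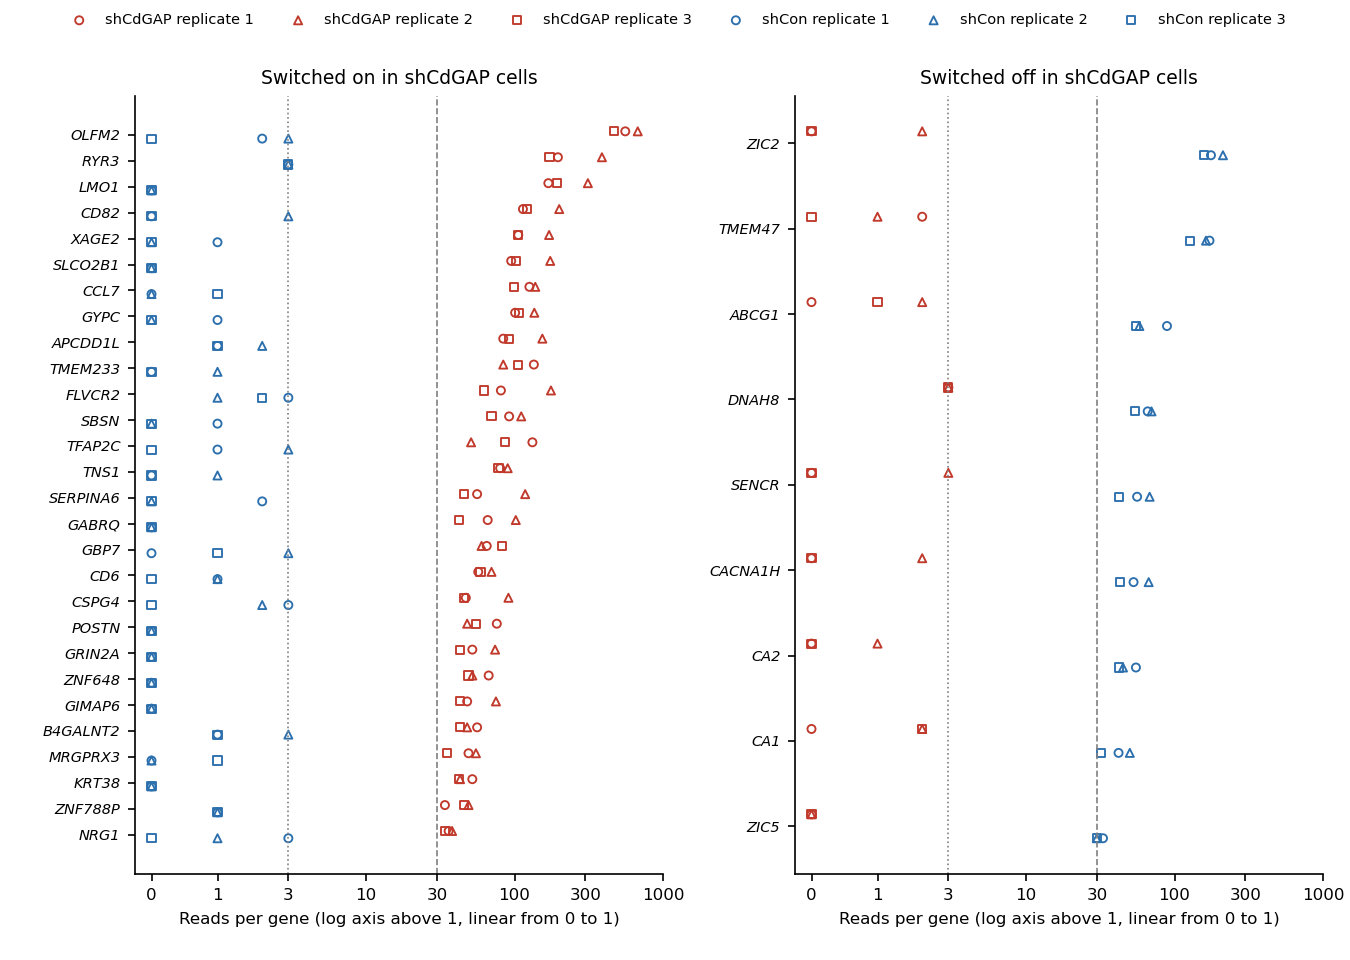
Reads per gene in each library (x axis, logarithmic above 1) for the 28 on members (left) and the 9 off members (right), shCdGAP in red and shCon in blue, with 1 marker shape for each replicate. Dotted and dashed lines mark the limits of 3 and 30 reads used to choose the genes. The highest member, OLFM2, had 465 to 676 reads in shCdGAP libraries, and ZIC5, the lowest, had 30 to 33 in shCon libraries.

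OLFM2, a secreted olfactomedin-domain glycoprotein on chromosome 19 (9853718 to 9936552), was the highest on member by reads and by RPKM. It had 557, 676 and 465 reads in shCdGAP replicates 1, 2 and 3 and 2, 3 and 0 reads in the shCon libraries, or 14.3 ± 1.09 against 0.0396 ± 0.0362 CPM (reads scaled to a common library size; SD, n = 3 each). The ratio was 336 (exact 95% interval of the summed reads 144 to 1036), an interval that covers counting error only. Its 3 shCdGAP values were within a factor of 1.15 of each other, while many other on members spread more widely. SERPINA6 on chromosome 14 encodes corticosteroid-binding globulin, the plasma carrier of cortisol. Its 56, 118 and 46 reads in shCdGAP cells faced 2, 0 and 0 in shCon cells. The third secreted factor was NRG1 on chromosome 8, a growth factor that binds ERBB receptors, with 36, 38 and 34 reads against 3, 1 and 0. NRG1 had the lowest ratio of the on members, 26.7 (interval 10.1 to 99.8).

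The largest class, channels, transporters and receptors, was led by RYR3 (chromosome 15 from 33310962 to 33866102), a ryanodine receptor that releases calcium from the endoplasmic reticulum. RYR3 had 196, 388 and 172 reads in shCdGAP libraries and 3 in each shCon library, at the upper limit of the rule, a ratio of 83.1 (interval 43.5 to 182). It is a long transcript, so its level per length was only 0.389 ± 0.144 RPKM (SD, n = 3). SLCO2B1 on chromosome 11, an uptake transporter for steroid sulfates and other organic anions, had 95, 174 and 103 reads and none in shCon cells, at least 123-fold higher when the 0 is replaced by a floor of 3 reads over the group. The pair of neurotransmitter receptor subunits among the members, GABRQ of a GABA receptor and GRIN2A of the NMDA receptor, were also at 0 in every shCon library. GABRQ, on the X chromosome, had 66, 102 and 42 reads in shCdGAP cells (at least 69.2-fold higher), and GRIN2A on chromosome 16 had 52, 74 and 43 (at least 55.7-fold higher). GRIN2A had the lowest level per length of all on members, 0.0896 RPKM. FLVCR2, a membrane transporter on chromosome 14, had 81, 176 and 62 reads against 3, 1 and 2. TMEM233, a small transmembrane protein on chromosome 12, went the other way among the replicates, with 135, 84 and 106 reads against 0, 1 and 0. MRGPRX3, an orphan Mas-related G protein-coupled receptor on chromosome 11, had 49, 55 and 35 against 0, 0 and 1.

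Proteins of adhesion, matrix and the cell surface made up the next class. CD82 (chromosome 11 from 44564427 to 44620363) is a tetraspanin known as a metastasis suppressor in prostate cancer. It had 114, 200 and 122 reads in shCdGAP replicates 1, 2 and 3 and 0, 3 and 0 in the shCon libraries, a ratio of 144 (interval 48.9 to 700). GYPC on chromosome 2, a red-cell glycophorin that anchors the membrane skeleton, had 101, 136 and 108 reads against 1, 0 and 0. TNS1 on the same chromosome, a tensin that links integrins to actin at focal adhesions, had 80, 90 and 78 against 0, 1 and 0. These 2 genes lie 91.1 Mb apart and varied little within the shCdGAP group. POSTN on chromosome 13 encodes periostin, a matrix protein of fibroblasts and bone, and was at 0 in all shCon libraries with 76, 48 and 55 reads in shCdGAP cells (at least 59.0-fold higher). Of 8 fibroblast markers, 5 were called higher and THY1 had at most 1 read in any library, with a summed level of 352 to 369 CPM in shCdGAP and 303 to 310 CPM in shCon libraries. Most of that sum was COL1A2, at 276 to 282 CPM in shCdGAP and 283 to 289 in shCon libraries (log2 fold change -0.04). The 5 called genes, COL1A1, COL3A1, LUM, PDGFRA and PDGFRB, rose by 1.67 to 3.17 on the log2 scale. The part of these markers in the POSTN counts was not tested. CSPG4 on chromosome 15, the NG2 proteoglycan, had 47, 91 and 46 reads against 3, 2 and 0. APCDD1L on chromosome 20, a membrane protein named for its likeness to a WNT inhibitor, had 84, 154 and 92 against 1, 2 and 1.

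The 4 immune or interferon-linked members differ in where they are normally found. CCL7 (chromosome 17 from 34270221 to 34272242) is a chemokine for monocytes made by many cell types, whereas CD6, a T cell surface receptor, and GIMAP6, a GTPase of lymphocytes, are thought of as leukocyte genes. CCL7 had 126, 138 and 99 reads in shCdGAP cells and 0, 0 and 1 in shCon cells, a ratio of 359 (interval 64.0 to 14222). CD6 on chromosome 11 had 57, 70 and 59 reads against 1, 1 and 0, and GIMAP6 on chromosome 7 had 48, 75 and 43 against 0 in each. GBP7 on chromosome 1, a guanylate-binding protein induced by interferon, had 65, 60 and 82 reads against 0, 3 and 1. Of 14 leukocyte markers, 10 had at most 3 reads in every library of both groups, including PTPRC, the CD3 genes and MS4A1. CD68 was called higher (55, 49 and 42 reads against 16, 19 and 14) and LYZ lower (4, 3 and 1 against 15, 27 and 26). The summed level of the 14 was 1.68 to 1.75 CPM in shCdGAP libraries and 1.05 to 1.4 CPM in shCon libraries.

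LMO1, TFAP2C, ZNF648 and ZNF788P were the nuclear regulators among the on members. LMO1 (chromosome 11 from 8224304 to 8268716) is a LIM-only cofactor of transcription and an oncogene in T cell leukaemia and neuroblastoma. With 169, 312 and 192 reads in shCdGAP cells and none in the shCon libraries, it was at least 222-fold higher, the largest bound among the 8 on members with no shCon read. The smallest of these bounds, 45.2, was that of KRT38. TFAP2C on chromosome 20, the AP-2 gamma transcription factor, had 132, 51 and 86 reads against 1, 3 and 0. It had the widest range within the shCdGAP group, a factor of 2.78, with replicate 2 lowest. ZNF648 on chromosome 1 had 67, 52 and 49 reads against 0 in each, and the zinc finger pseudogene ZNF788P on chromosome 19 had 34, 49 and 46 against 1 in each. Zinc finger paralogs share sequence and reads matching several places were not counted, so the level of ZNF788P is uncertain.

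Both epidermal members sit in gene clusters. SBSN on chromosome 19 encodes suprabasin, a secreted product of differentiating epidermis, and had 92, 111 and 70 reads in shCdGAP cells and 1, 0 and 0 in shCon cells. KRT38 (chromosome 17 from 41436446 to 41440921), a hair keratin, had 52, 43 and 42 reads against none. Of 7 keratinocyte markers, KRT5, KRT14, KRT1 and DSG3 were at 0 in all 6 libraries and TP63 was called higher, with 629, 423 and 494 reads against 262, 278 and 213. The summed level of the list was 36.4 to 41.8 CPM in shCdGAP and 28.7 to 30.2 CPM in shCon libraries, and its part in the counts of SBSN and KRT38 was not tested. The remaining on members were XAGE2 on the X chromosome, a cancer-testis antigen, and B4GALNT2 on chromosome 17, the enzyme that makes the Sda blood group sugar. XAGE2 had 106, 171 and 105 reads against 1, 0 and 0, the highest ratio of the on members at 378 (interval 67.4 to 14965), and reached 5.18 ± 1.08 RPKM (SD, n = 3). XAGE genes have near-identical copies, so its count is also uncertain. B4GALNT2 had 56, 48 and 43 reads against 1, 3 and 1.

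ZIC2 and ZIC5 led the off members. They are zinc finger transcription factors of the developing forebrain and neural crest, and lie head to head on chromosome 13, ZIC5 on the minus strand from 99962964 to 99971909 and ZIC2 on the plus strand from 99981772 to 99986773, with 9863 bases between them. ZIC2 had 176, 212 and 157 reads in shCon replicates 1, 2 and 3 and 0, 2 and 0 in the shCdGAP libraries, a ratio of 275 (interval 75.9 to 2280) and the highest among off members. ZIC5 had 33, 30 and 30 reads in shCon cells and none in shCdGAP cells, at least 31.3-fold lower. Being the only closely spaced pair of members with both promoters at hand, their sequences are shown (RefSeq, GRCh38.p14, 250 bases before to 50 after the start, each on the gene's own strand), with each CG dinucleotide in capitals. The first is chr13:99981534-99981833, plus strand, and the second chr13:99971860-99972159, minus strand.
ZIC2: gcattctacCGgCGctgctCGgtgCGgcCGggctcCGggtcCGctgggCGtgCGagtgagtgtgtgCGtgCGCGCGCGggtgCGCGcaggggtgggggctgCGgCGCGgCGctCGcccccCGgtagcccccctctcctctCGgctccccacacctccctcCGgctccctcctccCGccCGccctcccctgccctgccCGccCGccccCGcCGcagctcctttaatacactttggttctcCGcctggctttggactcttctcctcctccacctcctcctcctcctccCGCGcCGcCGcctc
ZIC5: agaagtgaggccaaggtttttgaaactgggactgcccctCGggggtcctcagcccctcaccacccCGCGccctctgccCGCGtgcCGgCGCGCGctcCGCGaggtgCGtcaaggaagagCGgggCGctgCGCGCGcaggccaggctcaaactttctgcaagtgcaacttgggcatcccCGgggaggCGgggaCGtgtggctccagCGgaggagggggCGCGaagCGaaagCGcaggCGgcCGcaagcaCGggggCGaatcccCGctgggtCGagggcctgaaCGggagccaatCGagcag
The ZIC2 window holds 35 CG dinucleotides, 0.89 of the number its base composition would give, at 75.0% G and C, and the ZIC5 window 33, at 0.90 and 70.3%. By the criterion of at least 0.6 and at least 50% G and C, 46.8% of all 35116 promoters in the reference table are rich in CG, and 78.3% of the 11490 matched to tested genes. Both ZIC windows met it. On members lay on both sides of it, and a promoter from each side is shown, that of LMO1 (chr11:8268738-8269037, minus strand), which met it with 15 CG dinucleotides, and that of CCL7 (chr17:34269971-34270270, plus strand), which did not, with 1.
LMO1: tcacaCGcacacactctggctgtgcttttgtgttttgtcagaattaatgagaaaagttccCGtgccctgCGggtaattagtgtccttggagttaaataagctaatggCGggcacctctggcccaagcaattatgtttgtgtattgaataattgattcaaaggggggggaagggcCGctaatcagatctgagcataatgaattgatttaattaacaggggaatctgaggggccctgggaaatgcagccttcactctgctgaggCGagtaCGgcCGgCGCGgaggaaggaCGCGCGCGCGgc
CCL7: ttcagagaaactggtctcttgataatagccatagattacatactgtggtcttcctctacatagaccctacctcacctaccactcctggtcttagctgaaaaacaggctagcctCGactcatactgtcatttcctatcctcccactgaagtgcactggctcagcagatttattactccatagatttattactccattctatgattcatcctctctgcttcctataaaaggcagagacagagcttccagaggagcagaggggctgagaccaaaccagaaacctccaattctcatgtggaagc
Of the 21 on and 5 off members in the table, 8 and 4 were rich in CG. These are under 80% of the members of each kind, so no comparison of promoter composition was drawn between members and other genes.

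The other close pair was CA1 and CA2 on chromosome 8, carbonic anhydrases that interconvert carbon dioxide and bicarbonate. CA1 spans 85327608 to 85379014 and CA2 85463852 to 85481493, 84838 bases further on and on the opposite strand. CA2 had 55, 45 and 42 reads in shCon cells and 0, 1 and 0 in shCdGAP cells, and CA1 had 42, 50 and 32 against 0, 2 and 2. CA13, 43.5 kb from CA1 and also a carbonic anhydrase gene, did not follow them. It had 162, 177 and 129 reads in shCdGAP cells and 153, 137 and 110 in shCon cells, a log2 fold change of 0.21 ± 0.11 (SE; edgeR adjusted p = 0.123).

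Of the remaining off members, TMEM47 on the X chromosome, a claudin-like protein of cell junctions, was the most abundant by reads after ZIC2. Its 172, 163 and 127 reads in shCon cells stood against 2, 1 and 0 in shCdGAP cells, a ratio of 156 (interval 52.9 to 758). ABCG1 on chromosome 21, a cholesterol efflux transporter, had 89, 58 and 55 reads against 0, 2 and 1. CACNA1H on chromosome 16, a T-type calcium channel subunit, had 53, 67 and 43 against 0, 2 and 0. DNAH8 on chromosome 6, a dynein heavy chain of the sperm tail, had 66, 70 and 54 reads in shCon cells and 3 in each shCdGAP library, the lowest ratio of the off members at 21.3 (interval 11.0 to 47.4). SENCR on chromosome 11 is a non-coding RNA transcribed antisense from the FLI1 locus and first described in endothelial and smooth muscle cells, and had 56, 68 and 42 reads against 0, 3 and 0. Of 6 endothelial markers, VWF and CLDN5 had at most 3 reads in every library, and the summed level of the list was 5.99 to 13.2 CPM in shCdGAP and 10.2 to 11.9 CPM in shCon libraries. The 13.2 was that of shCdGAP replicate 2. PECAM1 had 96, 261 and 93 reads in shCdGAP and 236, 230 and 181 in shCon libraries, and KDR 119, 291 and 118 against 194, 170 and 193. CDH5 had 2, 3 and 2 against 9, 10 and 7, and TEK 23, 22 and 16 against 17, 21 and 12. Of the 3 tested markers, 0 were called.

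The limits that chose the members cut through a continuum. Just inside the on limits were NRG1, ZNF788P and MRGPRX3, whose lowest shCdGAP counts were 34, 34 and 35. Missing the on rule in 1 library were 32 genes, the nearest being STARD8, TREM1 and GAP43, each with 4 reads in shCon replicate 2. TREM1, a receptor of myeloid cells, had 697, 1151 and 517 reads in shCdGAP libraries and 0, 4 and 1 in shCon libraries, more than any member. Just inside the off limits was ZIC5, and 25 genes missed the off rule in 1 library. Of those 25, 18 missed it through shCdGAP replicate 2, where they had 4 to 44 reads, among them the transcription factor genes SOX2 (3, 6 and 0 reads against 300, 272 and 238), LEF1 and FLI1. Without that library 27 genes met the off rule instead of 9, including all 9 members.

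Replicate 2 of shCdGAP also differed within the members. The 9 off members together had 5, 16 and 6 reads in shCdGAP replicates 1, 2 and 3, and 8 of the 9 had a read in replicate 2 against 2 and 3 of them in the others. In the same library 16 of the 28 on members (57.1%) had their highest CPM, and 8 their lowest, compared with 52.0% highest among the genes called higher that are no members and 41.4% among all tested non-members. FLVCR2, SERPINA6 and RYR3 were the most raised there and TFAP2C, TMEM233 and POSTN the most reduced. The median coefficient of variation of the on members in shCdGAP cells was 22.0%, against 14.5% for genes called higher and 7.69% for all tested non-members. Off members varied by a median of 11.1% in shCon cells, where all tested genes had a median of 3.89%. Counting alone would give a median of 11.3% for the on and 13.4% for the off members at these depths.

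**Figure D2:**
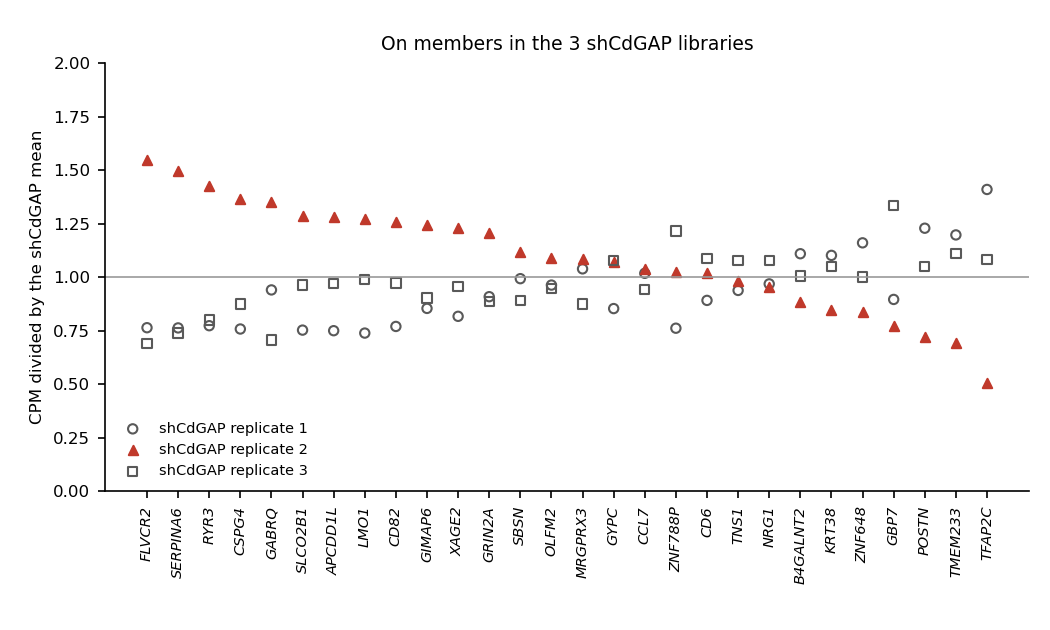
CPM of each on member in the 3 shCdGAP libraries, divided by the mean of the 3 (y axis), ordered by replicate 2 (filled triangles). The 28 genes do not share a rank order of the libraries, since replicate 2 is highest for 16 of them and lowest for 8.

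The on members were scattered over 14 chromosomes and the off members over 7. Chromosome 11 held most, with 5 on (LMO1, MRGPRX3, CD82, CD6 and SLCO2B1) and 1 off (SENCR), and 5.47% of the tested genes. No on member lay within 500 kb of another on or off member. The closest were APCDD1L and TFAP2C, 1.82 Mb apart on chromosome 20. In the off set, 4 of 9 lay within 500 kb of another, the ZIC and CA pairs.

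The genes next to the members were not used by the rule and could be tested. Within 100 kb of the 28 on members were 70 tested genes that are no members, and 26 of them (37.1%) were called higher in shCdGAP cells and 1 (1.43%) lower. Among all 16399 tested non-members the shares were 8.39% and 4.15%. The filter on low counts applied to both. The median log2 fold change of the 70 neighbours was 0.30, against 0.01 over all tested non-members. With distance the share called higher fell to 16.3% of 86 genes at 100 to 250 kb, 7.79% of 154 at 250 to 500 kb and 7.95% of 302 at 500 to 1000 kb. Of the 20 on members with a tested neighbour, 14 had one called higher, a count for which the matching share over other genes was not computed. Among neighbours whose symbols begin with the same letters as the member's, 15 of 19 were called higher, and among the others 11 of 51 (21.6%). In shCon libraries, 4 of the 26 higher neighbours were themselves at 3 reads or fewer in each, while 10 had over 100 reads in each. Counting those 4, 10 of the 26 had at most 10 reads in each shCon library and passed the filter only through the shCdGAP group. These 10 could hardly have been called lower, and for the 4 nearest to 0 the call was nearly fixed. They are part of the 37.1%.

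**Figure D3:**
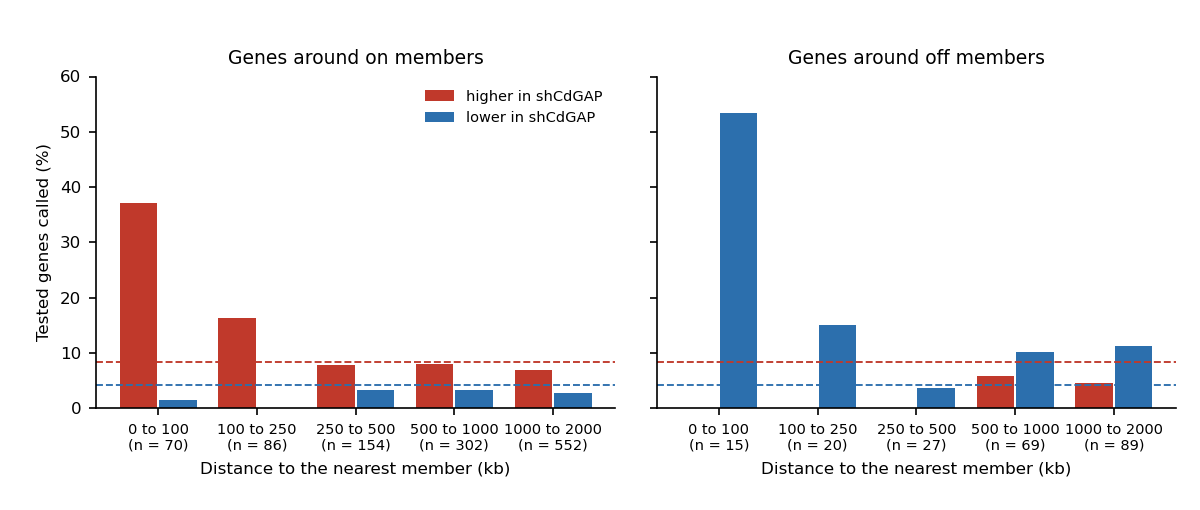
Percentage of tested non-member genes called higher (red) or lower (blue) in shCdGAP cells, by distance to the nearest on member (left) or off member (right), with the number of genes under each pair of bars. Dashed lines give the shares over all tested non-members, 8.39% higher and 4.15% lower. Bars nearest to on members reach 37.1% higher, and those nearest to off members 53.3% lower.

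The keratin locus around KRT38 held the most called neighbours. Neighbours outside the 10 largest changes around on members were picked for naming after their values were seen. KRT37, a hair keratin 11.9 kb away, had 19, 30 and 14 reads in shCdGAP cells and none in shCon cells, at least 20.8-fold higher (edgeR adjusted p = 0.000260). KRT32, a further hair keratin at 18.9 kb, had 11, 19 and 10 reads against 0, 1 and 0 (adjusted p = 0.000354), and KRT34 had 11, 16 and 20 against 3, 0 and 4 (adjusted p = 0.00608). The epithelial keratins at the edge of the window moved far less. KRT15 rose by 1.16 ± 0.14 and KRT19 by 1.04 ± 0.18 on the log2 scale (SE; edgeR adjusted p = 0.000145 and 0.00367). KRT19 already had 6930, 7392 and 5572 reads in the shCon libraries. The calls of KRT34, KRT15 and KRT19 were kept in 7, 10 and 6 of 11 alternative fits, and each was lost in at least 1 fit that left out a library. Without shCdGAP replicate 2, KRT15 and KRT19 had log2 fold changes of 0.96 and 0.79.

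GBP7, GIMAP6 and CCL7 likewise had family members next to them that rose. GBP4, 5.11 kb from GBP7, had 780, 826 and 683 reads in shCdGAP cells and 141, 118 and 101 in shCon cells, a log2 fold change of 2.65 ± 0.08 (SE; edgeR adjusted p = 4.73e-08), and GBP5, GBP1 and GBP2 rose by 1.51, 1.18 and 1.15. GIMAP5 was near 0 in shCon cells as GIMAP6 was, with 41, 47 and 26 reads against 0, 0 and 1 (a ratio of 113, interval 19.8 to 4493), and missed the on rule in shCdGAP replicate 3 only. GIMAP2 had 115, 150 and 108 reads against 10, 19 and 10. CCL2, the monocyte chemokine 13.0 kb from CCL7, was far more abundant than CCL7 in both groups. It had 22504, 16400 and 19787 reads against 818, 877 and 692 (log2 fold change 4.62 ± 0.19, adjusted p = 6.83e-06).

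Next to SBSN was DMKN, dermokine, a further secreted product of epidermis. It had 1157, 1402 and 1000 reads in shCdGAP cells and 15, 15 and 14 in shCon cells, a log2 fold change of 6.30 ± 0.11 (SE; edgeR adjusted p = 3.75e-09). SERPINA1, the alpha-1 antitrypsin gene 53.4 kb from SERPINA6, rose by 3.73 ± 0.23 on the log2 scale (adjusted p = 3.32e-05), and PPP4R4, 24.5 kb from SERPINA6, by 2.09 ± 0.09. Unrelated genes followed in some places, such as TMCO5B near RYR3 (885, 773 and 677 reads against 23, 19 and 14), SLC15A3 near CD6 (65, 48 and 52 against 5, 9 and 3), and the divergent transcript APCDD1L-DT, 248 bases from APCDD1L (417, 535 and 360 against 18, 23 and 26). LINC02704, 74.5 kb from CD82, had 12, 12 and 14 reads against none. The 1 lower neighbour was IGF2BP1, 76.8 kb from B4GALNT2, with 9, 11 and 5 reads in shCdGAP and 71, 53 and 40 in shCon cells (log2 fold change -2.71 ± 0.27, adjusted p = 3.48e-05), while PHOSPHO1, 53.4 kb from B4GALNT2, rose by 2.72.

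Near GABRQ, CSAG1 and CSAG4 were called higher, with log2 fold changes of 1.25 and 1.19. Within 1 Mb of GABRQ, 8 of 18 tested genes were called higher and 1 lower. Near MRGPRX3, SAA4 and SAA2-SAA4 were called higher, by 2.80 and 2.78. Around the remaining on members few or none of the surrounding genes were called. The 5 tested genes within 100 kb of OLFM2, the highest on member, had log2 fold changes from -0.13 to 0.39, and the 8 around CSPG4 from -0.19 to 0.93. Those overlapping FLVCR2 ranged from -0.39 to 0.01. AVEN, 125 bases from RYR3 on the opposite strand, had a log2 fold change of -0.71 ± 0.11 (SE; edgeR adjusted p = 0.000470) and so went against RYR3 without passing the threshold on size. Around ZNF788P, the zinc finger genes ZNF44 and ZNF136 had log2 fold changes of -0.76 and -0.52, and ZNF433 had 14, 17 and 10 reads in shCdGAP cells and 5, 3 and 0 in shCon cells, a call that DESeq2 and 3 fits without a library did not make. No gene within 100 kb of LMO1, TFAP2C, POSTN, XAGE2 or 4 further on members passed the filter on low counts.

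**Figure D4:**
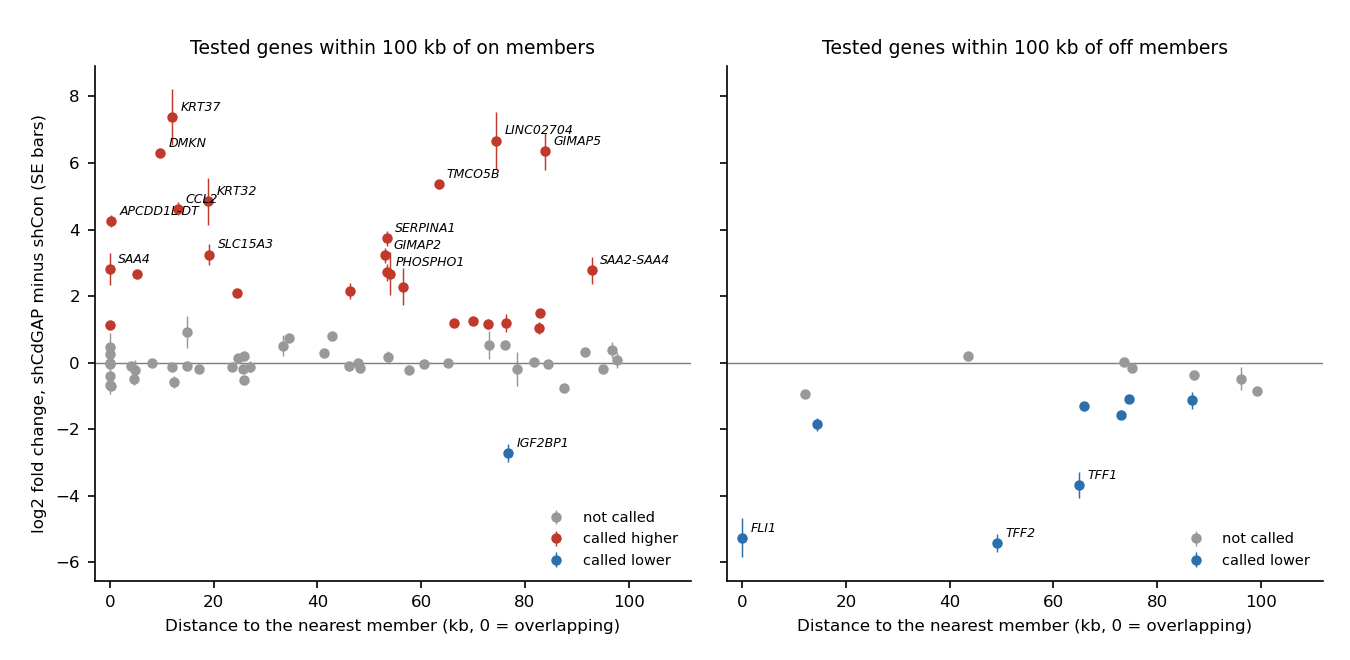
Log2 fold change with SE (y axis) of each tested non-member gene within 100 kb of an on member (left) or an off member (right), by distance in kb (x axis). Called genes beyond 2.7 are named, with KRT37 and LINC02704 at 0 reads in shCon cells, where the fitted change depends on the prior count. Higher neighbours, 26 of 70, lie around on members, and 8 of 15 neighbours of off members were lower.

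Around the off members the picture had the opposite sign. Within 100 kb were 15 tested non-member genes, of which 8 (53.3%) were called lower and 0 higher by edgeR (also 8 and 0 by DESeq2). They came from 4 loci, those of SENCR, ABCG1, CACNA1H and the ZIC pair. FLI1, an ETS transcription factor gene that SENCR overlaps on the opposite strand, had 0, 14 and 0 reads in shCdGAP cells and 193, 190 and 158 in shCon cells, a log2 fold change of -5.26 ± 0.59 (SE; edgeR adjusted p = 0.000180). All 14 of its shCdGAP reads, and the 3 of SENCR, were in replicate 2. FLI1 thus passed the filter on low counts only through the shCon group, so its call was nearly fixed. Counting used strand. Among 290 pairs in which a gene's exons lie inside those of a highly expressed gene on the opposite strand, 264 had a read density under 0.05 of that of the other gene.

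Downstream of ABCG1 lie the 3 trefoil factor genes, which encode small peptides secreted with mucus. TFF2, 49.1 kb away, had 5, 3 and 1 reads in shCdGAP cells and 133, 153 and 109 in shCon cells (a ratio of 44.4, interval 23.1 to 97.7; edgeR adjusted p = 5.65e-07). TFF1 had 31, 4 and 18 reads against 248, 241 and 190, and TFF3 19, 21 and 13 against 57, 73 and 59. TFF2 passed the filter on low counts only through the shCon group, so its call was nearly fixed. TFF1, with 4 reads in shCdGAP replicate 2, did not pass through the shCdGAP group alone. RSPH1 and SLC37A1, up to 199 kb away, were also called lower, RSPH1 with a log2 fold change of -1.78, whereas MX1 and MX2, interferon-induced genes on the other side of ABCG1, were called higher, by 2.91 and 2.58. The calls of SLC37A1, at the threshold of size, and of MX1 were lost in 2 and 3 of the 6 fits that left out a library. Near CACNA1H, the somatostatin receptor gene SSTR5 fell by 1.56 ± 0.13 and its antisense transcript SSTR5-AS1 by 1.09 ± 0.13 (SE; edgeR adjusted p = 1.13e-05 and 0.000301). Without shCdGAP replicate 2 the change of SSTR5-AS1 was -0.95 and its call was lost. ENSG00000261720, a non-coding gene 86.7 kb from CACNA1H, had a log2 fold change of -1.13 and lost its call in 5 of those 6 fits. GLO1, 12.2 kb from DNAH8, had a log2 fold change of -0.94 ± 0.07, just short of the size threshold (adjusted p = 1.21e-05).

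The ZIC pair were the only members with at least 5 tested genes within 1 Mb all of which had negative log2 fold changes. The 9 tested non-member genes within 1 Mb of ZIC2 ranged from -2.04 for TMTC4 to -0.85 for PCCA-DT on that scale, and 7 were called lower. The called gene within 100 kb was CLYBL, 65.8 kb from ZIC5, at -1.31 ± 0.13 (SE; edgeR adjusted p = 3.34e-05). Within 5 Mb, 29 of 29 were negative and 27 called lower, with a median of -1.65 and the most negative, DZIP1, at -3.71. Chromosome 13 as a whole had 128 of its 268 tested non-members (47.8%) called lower, against 4.15% of all. ZIC2 was chosen by its own counts, so the size of its change was not compared with that of the 29 genes within 5 Mb. Whether the lower level of this stretch contributes to the ZIC counts was not tested. Members elsewhere had medians within 1 Mb from -0.34, at POSTN, to 0.80, at CD82.

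**Figure D5:**
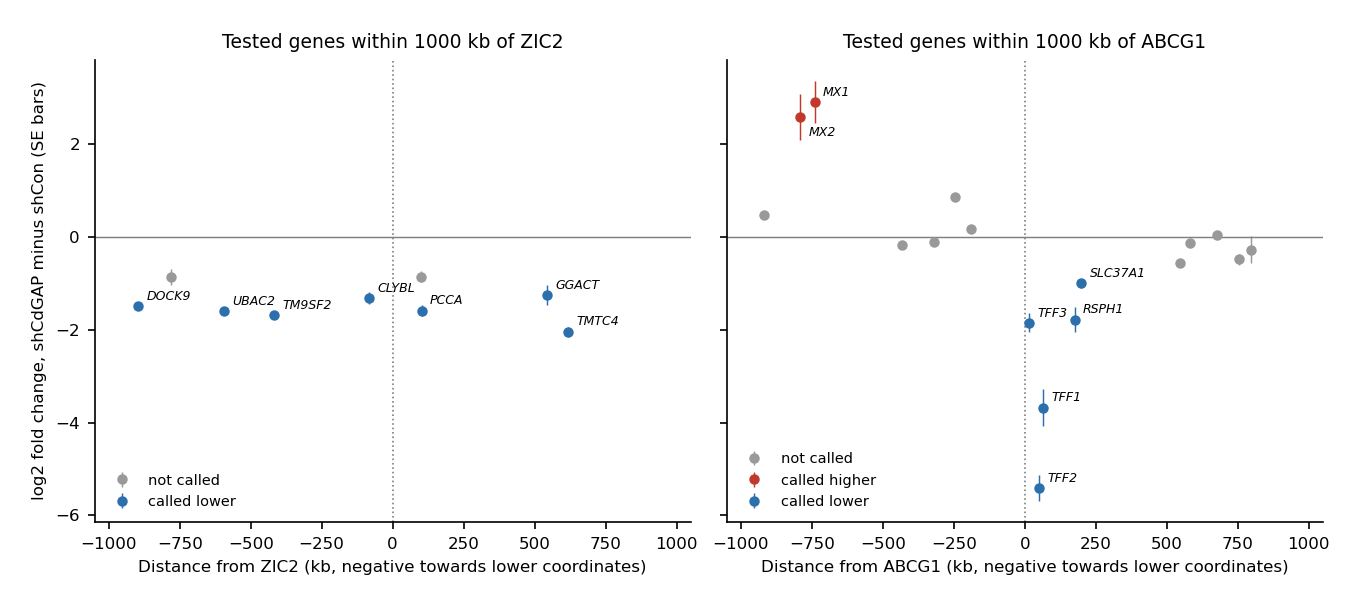
Log2 fold change with SE (y axis) of tested non-member genes within 1000 kb of ZIC2 (left) and ABCG1 (right) by distance in kb (x axis, negative towards lower coordinates). All 9 genes around ZIC2 lie below 0, and around ABCG1 the lower genes, TFF1, TFF2, TFF3, RSPH1 and SLC37A1, lie on 1 side within 199 kb.

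The members were also set against 10 lists of genes of the same kinds, written with earlier results of the data known, each described by its tested genes that are no members. Over all such genes 8.39% were higher, 4.15% lower and the median log2 fold change was 0.01. Some list genes are neighbours already counted above, and are given apart. A list gene near 0 in 1 group passed the filter on low counts only through the other, so its call was nearly fixed. Of 8 other hair keratin and cornified envelope genes, 6 were higher and 0 lower, with a median of 5.54, or 4.62 with genes at 0 in a group set to their bound. This list had 44 genes in the count tables, most of which did not pass the filter. KRT37, KRT32, KRT34 and LCE3D, near 0 in shCon cells, passed it only through the shCdGAP group. Of the 8 tested genes, 4 were neighbours of KRT38 or SBSN, and 2 of the other 4 were higher. LCE3D, a late cornified envelope gene of the epidermis, was 1 of those 2, with 36, 41 and 26 reads in shCdGAP cells against none (at least 34.0-fold higher). Of 16 other innate immune receptor and guanylate-binding protein genes, the list of GBP7 and CD6, 10 (62.5%) were higher and 0 lower (median 1.28). Without the 4 that are neighbours of members, 6 of 12 were higher. NOD2, a sensor of bacterial cell wall, came close to the rule with 31, 60 and 29 reads against none. In the matrix list, which holds POSTN, 15 of 34 (44.1%) were higher and 6 (17.6%) lower (median 0.90). For channels and neurotransmitter receptors, the list of RYR3, GRIN2A, GABRQ and CACNA1H, the counts were 11 (37.9%) and 3 (10.3%) of 29 (median 0.44).

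Developmental transcription factors, the list of LMO1, TFAP2C and the ZIC pair, had 6 (14.6%) higher and 2 (4.88%) lower of 41, near the shares over all genes, and a median of -0.14. Of 476 zinc finger genes beside ZNF648 and ZNF788P, 7 (1.47%) were higher and 66 (13.9%) lower (median -0.23), and the others were not called. Cancer-testis antigens, the list of XAGE2, had 4 higher and 1 lower of 10 (median 0.55), and most of the 119 in the count tables did not pass the filter. MAGEA11 moved as XAGE2 did (197, 187 and 195 reads against 6, 10 and 8) and MAGEA10 the opposite way (6, 8 and 8 against 208, 212 and 177). In the list of mucins and secreted epithelial products, which holds CA2, 11 of 15 were lower and 1 higher (median -4.32). Without the 3 trefoil factors near ABCG1, 8 of 12 were lower, with MUC5AC, a gel-forming mucin, at 10, 5 and 7 reads against 661, 698 and 542. The GIMAP and chemokine lists, with 7 and 14 genes in the count tables, held no tested non-member other than the neighbours GIMAP2, GIMAP5 and CCL2 described above.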

How the data were processed

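RNA of 6 PC-3 cultures, 3 per group, was sequenced, aligned to GRCh38 with STAR 2.5.1b and counted on Ensembl 77 genes. The authors deposited whole-number read counts per gene, with featureCounts 1.6.0, read pairs and reverse-strand counting named per the file headers, whereas the methods name version 1.4.6 and a 50-cycle single-read kit. The authors called differential expression with DESeq2 1.12.3. Here members were found by rule in the raw counts. The members, gene lists and tests were chosen with earlier results of these data known. Genes were filtered with filterByExpr and tested with edgeR 4.0.16 (TMM scaling, quasi-likelihood F test, Benjamini-Hochberg adjustment, R 4.3.3), and called where the adjusted p was below 0.01 and the size of the log2 fold change above 1. On simulated counts for this comparison, 196 of 200 changed genes among 16415 were recovered with 0 false calls. The changed genes excluded those with the fewest reads, and their changes were all well above 1 on the log2 scale. Recovery of genes with few reads or with changes near 1 was therefore not measured. CPM used TMM-scaled totals, and RPKM divided them by exonic length. Ratios of summed reads have exact 95% intervals, and a group at 0 was set to a floor of 3 reads over the group. These cover counting error only. Gene types came from GENCODE v44, which matched 87.3% of the gene IDs, and promoters from RefSeq. Neighbours were tested non-members within 100 kb. Chosen for naming by rule were all members, up to 10 called neighbours with the largest change around on and around off members, and up to 3 called genes of each list. Not every list gene so chosen is named above. The alternatives were other limits, scaling to the smallest library, other windows, DESeq2 1.42.0, library-size scaling, other filters, a block for the replicate number, and leaving out each library in turn. Neighbours without shared symbol letters or overlap, and list genes away from members, were counted as alternatives chosen after seeing the data.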

Additional observations from a re-analysis of the deposited data

How the results depend on the processing

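The number of members followed the limits. With a low limit of 0 reads there were 8 on and 1 off members, with 10 reads 99 and 43, with a high limit of 10 reads 103 and 39, and with 100 reads 6 and 2. After scaling reads to the smallest library, 26 on (without NRG1 and ZNF788P) and 8 off members (without ZIC5) were left. With each library left out in turn the on members numbered 30 to 37 and the off members 9 to 27, the 27 without shCdGAP replicate 2. Neighbours of on members called higher numbered 11 of 40 within 50 kb, 52 of 310 within 500 kb and 11 of 51 without genes sharing the member's symbol letters, and those called lower 0 within 50 kb, 6 within 500 kb and 2 as the nearest tested gene on each side. Neighbours of off members called lower numbered 3 of 5 within 50 kb and 4 of 14 as the nearest gene on each side, where 1 was called higher. DESeq2, library-size scaling, other filters and each library left out kept all counts of neighbours, of list genes and of all genes within 1.5 times. Beside the members, 63 neighbour and list genes were followed through the alternatives. Some of these are not named above, and some genes named above were not among them. Of the 63, 54 kept their call in all alternatives and 0 reversed. The exceptions were ENSG00000261720, SSTR5-AS1, GLO1, KRT34, KRT15, KRT19, ZNF433, MX1 and SLC37A1. Samples with the same replicate number did not deviate together (correlations of 0.03, 0.05 and 0.05 over 16439 genes). With the replicate block 1371 genes were higher and 677 lower, against 1407 and 689 without it. At these depths a count of 3 reads or fewer does not show that a gene is silent.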
